A study of Mus musculus with 12 samples.

Results

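The genes described here are Lgals1, Lgals3, Lgals4, Lgals8, and Lgals9, which encode the galectins of the same numbers, together with Lgals3bp, which encodes a secreted glycoprotein that galectin-3 binds. They were chosen by gene symbol and are 6 of the 43626 gene rows of the count tables. All 6 had enough reads to be among the 14308 genes tested, but Lgals4 did so with only 2 to 24 reads per library. Galectins are small lectins that bind β-galactosides. They are made in the cytosol, leave the cell without a signal peptide, and cross-link glycoproteins and glycolipids at the cell surface. Inside the cell, several of them, galectin-3 and galectin-8 among them, also bind glycans that become exposed when an endosome or lysosome is damaged, and macrophages are known as a rich source of galectin-3.

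RNA-Seq libraries of mouse bone marrow–derived macrophages (BMDMs) were analysed, 3 for each of 4 groups. The groups were BMDMs given PBS, 3′SL at 100 μg/mL, LPS at 10 ng/mL, or LPS and 3′SL together, each for 6 hours. LPS, a bacterial glycolipid, is the classical ligand of TLR4. 3′SL (3′-sialyllactose, which the labels call HMO) is a milk sugar in which sialic acid is attached to lactose, itself a β-galactoside. Doses and hours come from the paper, since the treatment given in the labels describes injections of mice. The strain, sex, and age of the mice behind these cultures, and whether each library is a separate culture, are not given in the labels, so the p-values measure the spread between these libraries, which may be technical. The comparisons ask how LPS moves the galectin genes and whether 3′SL moves them with or without LPS. LPS against PBS shares no libraries with LPS + 3′SL against 3′SL, nor does 3′SL against PBS with LPS + 3′SL against LPS, but the other pairs of these comparisons share a group.

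Between 20411741 and 26851890 reads per library were counted on genes (median 23375851). Levels are CPM, the counts of a gene relative to the size of its library, with sizes scaled by edgeR's TMM factors. A gene was called at a Benjamini-Hochberg adjusted p under 0.05 in edgeR's quasi-likelihood test and a change of at least 1.5-fold. Once group means were removed, the libraries were clustered into 3 sets, a number fixed beforehand, and each set held 1 library per group. The mean residual correlation was 0.596 within and −0.346 between sets. It comes from the residuals that formed the sets and is no test of them. Because the sets come from the same counts, p-values with the sets as a block may be too small. Values are listed in the order of sets 1, 2, and 3. All 8 macrophage markers were detected in every library, and the T cell markers Cd3e and Cd3g were at 0 in all 12. Summed stromal markers (8 genes) were 529 to 616 CPM in set 1, 22.6 to 42.0 in set 2, and 54.0 to 96.7 in set 3. Summed neutrophil markers (7 genes) were 111 to 172 CPM in set 1, 207 to 353 in set 2, and 240.4 to 784 in set 3. The summed markers of B cells (4 genes) were at most 2.75 CPM, of dendritic cells (4 genes) 14.7, of basophils and mast cells (3 genes) 3.06, and of T cells (4 genes) 0.123. In bulk libraries, fewer cells of a type and less RNA per cell cannot be told apart.

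BMDMs given PBS expressed mainly the genes of galectin-3 and galectin-1. Per kilobase of exon, the level with PBS was 1414 ± 108 CPM for Lgals3 (SD, n = 3 here and below), 963 ± 58.4 for Lgals1, 187 ± 62.2 for Lgals3bp, 51.9 ± 6.62 for Lgals9, 29.8 ± 2.28 for Lgals8, and 0.210 ± 0.0453 for Lgals4. No neighbours in this order overlapped in their PBS libraries. With LPS the order of the means was the same, at 1097 ± 141 CPM per kilobase for Lgals3, 860.4 ± 149 for Lgals1, 596 ± 187 for Lgals3bp, 381 ± 77.9 for Lgals9, 98.8 ± 24.8 for Lgals8, and 0.141 ± 0.0746 for Lgals4. Lgals3 and Lgals1 then overlapped, and so did Lgals1 and Lgals3bp. In set 3 with LPS, Lgals3bp (811 CPM per kilobase) stood above Lgals1 (691). The rest of the galectin family added little. Lgals7 and Grifin had 0 reads in every library, Lgals2 had at most 3, and Lgals12 at most 2, while Lgals6 was not found among the gene rows. Lgalsl, a galectin-like gene, was at 2.62 ± 1.32 CPM with PBS and 2.41 ± 1.59 with LPS, and passed the test in none of the comparisons with edgeR, DESeq2, total counts, or the library sets as a block.

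**Figure D1:**
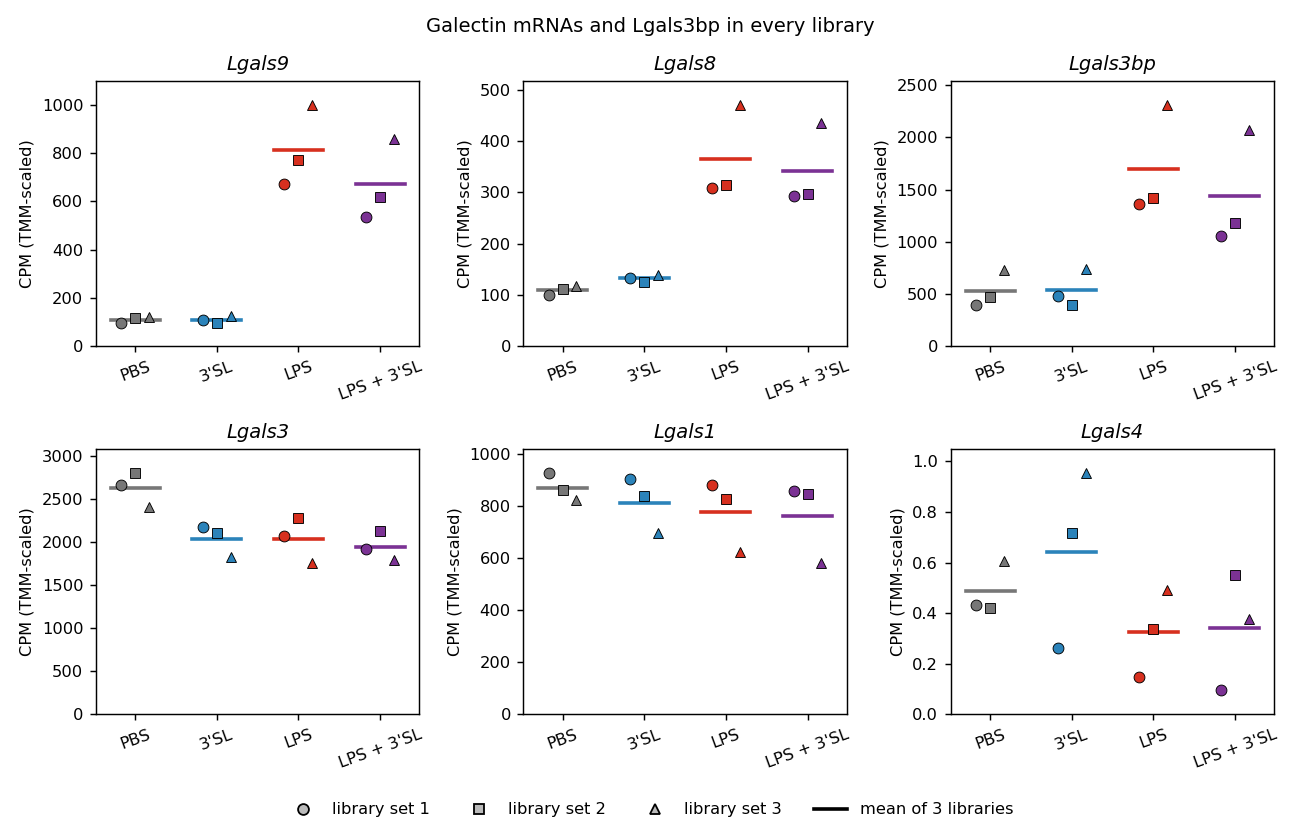
Level of each gene in every library, in CPM on TMM-scaled library sizes with linear axes from 0; the marker shape gives the library set and the bar the mean of 3 libraries. Lgals9, Lgals8, and Lgals3bp sit higher in all 6 libraries with LPS than in the 6 without, and the highest LPS library of each is that of set 3.

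LPS raised 3 of the 6 genes, Lgals9, Lgals8, and Lgals3bp, and 0 were called lower. Of all 14308 genes tested, 38.5% were called, 18.3% higher and 20.2% lower. Without a test, the libraries of these 3 genes did not overlap between LPS and PBS, which was so for 27.3% of all genes in this direction, and those of Lgals3 did not overlap in the other, as for 31.1% of all genes. Whether Lgals3 and Lgals1 are called lower depends on how the libraries are scaled. When libraries were scaled by total counts alone, the median change of all genes moved from −0.06 to −0.71 on the log2 scale, 10.7% of genes were called higher and 46.5% lower, and changes are therefore also given relative to that median.

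Lgals9 encodes galectin-9, a galectin with a pair of sugar-binding domains in one chain and a ligand of the checkpoint receptor TIM-3. The gene lies on the minus strand at chr11:78962974-78984946 (GRCm38, GENCODE M21). Its mRNA was at 94.8, 116, and 121 CPM with PBS, at 108, 94.9, and 128 with 3′SL, at 673, 770.3, and 998 with LPS, and at 533, 617, and 859 with LPS + 3′SL. All 6 libraries with LPS lay above all 6 without, and no library without LPS exceeded 128 CPM. LPS raised Lgals9 7.34-fold over PBS (log2 fold change 2.88 ± 0.22 SE, adjusted p = 3.4e-06, edgeR), a value above that of 95.2% of the genes tested. Within the library sets the log2 changes were 2.83, 2.73, and 3.04. With total counts the log2 fold change was 2.21 (adjusted p = 3.2e-07), which lies 2.92 above the median of all genes, against 2.94 above it with TMM factors.

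The promoter of Lgals9 is shown because it was the only one of those examined that held the core of the interferon-stimulated response element, GAAA and GAAA with any 2 bases between them. Windows of 300 bases around the start were taken from RefSeq (GRCm38.p6) and both strands were searched, and 5 of the 6 genes had an entry, Lgals1 being the exception. Lgals9 held 2 matches, and Lgals3, Lgals3bp, Lgals4, and Lgals8 held 0. Of all 32851 promoters of this length in the table, 3.44% held at least 1 match. None of the 5 held the NF-κB motif, GGGA and TTTCC with any 1 base between them (0.411% of all promoters), or the AP-1 motif TGANTCA (7.81%). The GC box GGGCGG (35.7% of all) occurred 2 times in Lgals3, with 1 match on each strand, and 1 time in Lgals4. Along the strand of each gene, the RefSeq start lay 22 bases after the GENCODE start for Lgals9, 133 for Lgals3bp, 3206 for Lgals8, and 6109 for Lgals3, so that these starts lie inside the genes as GENCODE draws them, whereas that of Lgals4 lay before it. The sequences below are written 5′ to 3′ on the strand of the gene, with the matches in capitals, which for Lgals9 are the reverse complement of the motif. The first covers chr11:78984947-78985174, the 228 bases before the first annotated exon, with its match at −55 from the RefSeq start counted as 0. The second covers chr11:78984890-78984919, with its match at 15.
Lgals9, upstream: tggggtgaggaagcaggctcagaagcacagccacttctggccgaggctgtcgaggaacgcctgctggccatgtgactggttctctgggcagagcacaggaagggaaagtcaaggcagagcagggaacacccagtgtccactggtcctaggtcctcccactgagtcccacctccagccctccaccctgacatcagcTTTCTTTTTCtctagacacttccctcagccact
Lgals9, after the RefSeq start: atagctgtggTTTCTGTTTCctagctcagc
A match describes the letters only, and binding was not measured here.

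Lgals3bp encodes the galectin-3 binding protein, a heavily glycosylated secreted protein, and lies on the minus strand at chr11:118392751-118402092 (GRCm38). Its level was 392, 471, and 731 CPM with PBS, 479.7, 397, and 738 with 3′SL, 1360.3, 1419, and 2308 with LPS, and 1054, 1183, and 2072.5 with LPS + 3′SL. In every group the library of set 3 was the highest, by more than the difference between the other two. LPS raised Lgals3bp 3.19-fold over PBS (log2 fold change 1.67 ± 0.36 SE, adjusted p = 0.00283, edgeR), with changes of 1.80, 1.59, and 1.66 within the sets. With the library sets as a block the estimate was 1.68 ± 0.10 SE (adjusted p = 6.8e-08). With total counts the log2 fold change was 1.001 (adjusted p = 0.00546), with 1.23, 0.98, and 0.87 within the sets. Summed neutrophil markers were also higher with LPS than with PBS in each set, at 171 against 111 CPM in set 1, 353 against 207 in set 2, and 784 against 431 in set 3. Mostly these sums were S100a8, S100a9, and Ngp, which with Camp were higher with LPS in every set. The other markers, Ly6g, Elane, and Mpo, were at no more than 3.44 CPM with PBS or LPS and did not rise throughout. With LPS, Ly6g was lower in set 2, Elane in sets 2 and 3, and Mpo in set 3. Whether neutrophils had a part in the levels of Lgals3bp, Lgals9, and Lgals8 was not tested.

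Beside the RefSeq start of Lgals3bp lay a shorter core of interferon regulatory factor sites, AANNGAAA, a motif that was added after the letters had been seen. It occurs in 23.9% of all promoters of this length, 3 times in the window of Lgals9 (2 of them inside the longer matches above), and 1 time in that of Lgals3bp, at −14. The stretch covers chr11:118401955-118401984 (GRCm38.p6, RefSeq, minus strand), again with the match in capitals.
Lgals3bp, at the RefSeq start: tgttttctgaaAATCGAAActaggtgaggt

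Lgals8 encodes galectin-8, another galectin with paired domains, which binds 3′-sialylated galactosides through its N-terminal domain and recruits the autophagy receptor NDP52 to damaged endosomes. It lies on the minus strand at chr13:12439415-12464944 (GRCm38), and 155 of its 3688 exon bases overlap Heatr1 on the opposite strand. The libraries were stranded, but whether the counting used the strand is not given in the sources used here, so reads from that overlap could belong to either gene. Lgals8 was at 100.4, 112, and 117 CPM with PBS, 133, 126, and 138 with 3′SL, 309, 314, and 469.9 with LPS, and 293, 297, and 435 with LPS + 3′SL. The libraries with LPS again lay above all those without. LPS raised Lgals8 3.32-fold over PBS (log2 fold change 1.73 ± 0.20 SE, adjusted p = 4.1e-05, edgeR), by 1.62, 1.48, and 2.01 within the sets. With total counts the log2 fold change was 1.06 (adjusted p = 2.1e-05).

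Lgals3, which encodes galectin-3, the galectin with a long collagen-like tail, lies on the plus strand at chr14:47367751-47386160 (GRCm38). It was at 2670.4, 2804, and 2408.5 CPM with PBS, 2175, 2109, and 1832 with 3′SL, 2067, 2284, and 1763 with LPS, and 1917, 2130.4, and 1797 with LPS + 3′SL. The 3 PBS libraries were the highest of all 12, and the other groups overlapped each other. Against PBS, the log2 fold change with LPS was −0.37 ± 0.14 SE (1.29-fold lower, adjusted p = 0.0577, edgeR), which did not pass the test. With the library sets as a block the adjusted p was 0.00113 and with DESeq2 0.0181, at log2 fold changes of −0.37 and −0.31 that stayed under the 1.5-fold minimum. With total counts it was −1.01 (adjusted p = 0.00127) and Lgals3 was called lower. Relative to the median of all genes, the change was −0.31 with TMM factors and −0.30 with total counts.

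Lgals1 encodes galectin-1, a galectin that works as a dimer of single domains, and lies on the plus strand at chr15:78926725-78930465 (GRCm38). Its level was 926.5, 860.3, and 822 CPM with PBS, 903, 837, and 695 with 3′SL, 879, 828, and 624 with LPS, and 856, 848, and 583 with LPS + 3′SL. The groups overlapped, and in each group set 3 was the lowest. The log2 fold change with LPS was −0.16 ± 0.18 SE (95% interval −0.57 to 0.24, adjusted p = 0.507, edgeR). With total counts it was −0.80 (adjusted p = 0.0214) and Lgals1 was called lower, but relative to the median of all genes the change was −0.09, against −0.10 with TMM factors.

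Lgals4, which encodes galectin-4, a galectin known mainly from the gut epithelium, lies on the plus strand at chr7:28833854-28841708 (GRCm38). It had 15, 12, and 18 reads with PBS, 7, 18, and 24 with 3′SL, 3, 7, and 8 with LPS, and 2, 12, and 7 with LPS + 3′SL. In CPM the groups overlapped. Against PBS, LPS gave a log2 fold change of −0.59 (95% interval −2.08 to 0.90, adjusted p = 0.518, edgeR), and at this depth a difference was not detectable. Only with the block and total counts together was Lgals4 called lower (log2 fold change −1.36, adjusted p = 0.0306), a fit that called 51.7% of all genes lower. Summed epithelial markers (5 genes) were 0.244 to 1.31 CPM over the 12 libraries.

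**Figure D2:**
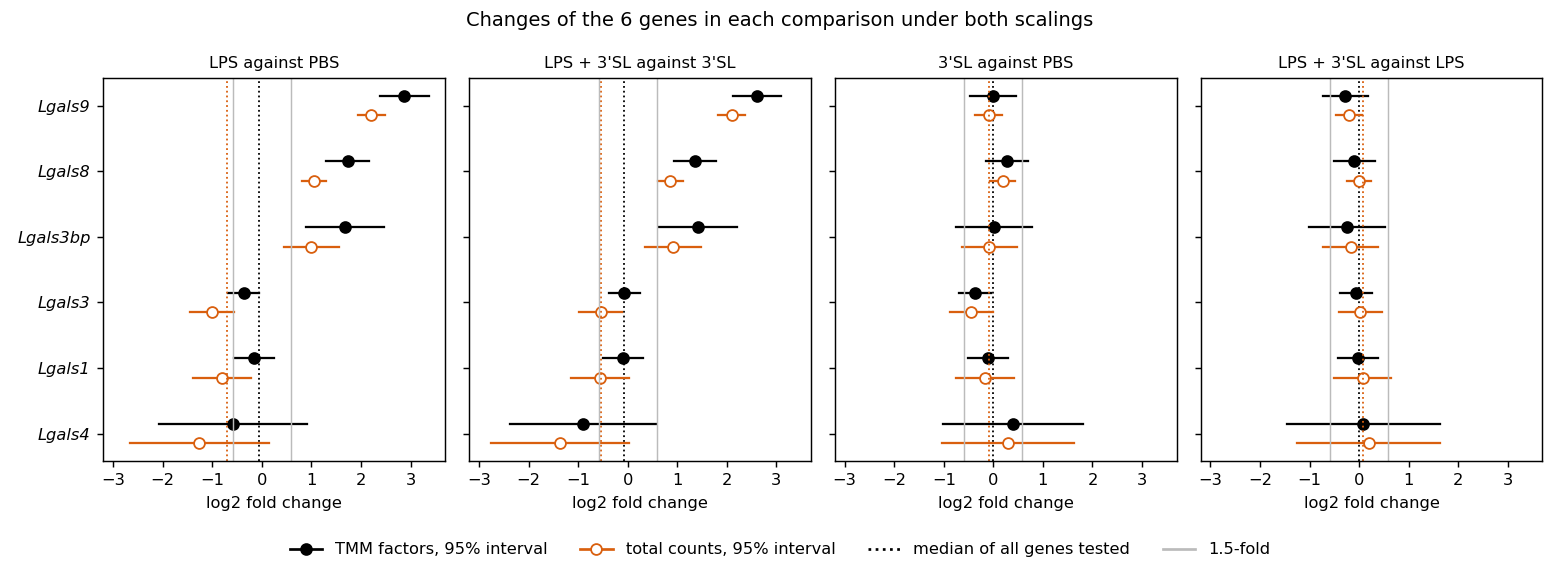
Log2 fold change of each gene with its 95% interval in the 4 comparisons, with TMM factors (filled) and with total counts (open); dotted lines mark the median of all genes tested under each scaling and grey lines 1.5-fold. Lgals9, Lgals8, and Lgals3bp are called higher in both LPS comparisons under both scalings. Between the scalings, Lgals3 and Lgals1 shift about as the median of all genes does. Relative to that median, Lgals3 is at −0.31 (TMM factors) and −0.30 (total counts) for LPS against PBS. For 3′SL against PBS it is at −0.37 and −0.36.

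In cells given 3′SL, LPS raised the same genes. Against 3′SL alone, LPS + 3′SL raised Lgals9 6.08-fold (log2 fold change 2.60 ± 0.22 SE, adjusted p = 1.0e-05, edgeR), Lgals3bp 2.67-fold (1.42 ± 0.35, adjusted p = 0.00938), and Lgals8 2.58-fold (1.37 ± 0.19, adjusted p = 0.000286). Thus 3 of 6 genes were called higher, against 14.3% of all genes tested, and 0 were called lower, against 14.8%. In all, 29.2% of genes were called. The libraries of the 3 genes did not overlap between these groups, as was so for 22.4% of all genes in this direction. The call of Lgals3bp was lost without library set 1 (log2 fold change 1.52, adjusted p = 0.0512) and without library set 2 (1.36, adjusted p = 0.119). Lgals3 had a log2 fold change of −0.07 ± 0.14 SE and Lgals1 of −0.09 ± 0.18 SE, both close to the median of all genes (−0.07).

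The scaling cancels in ratios between genes of one library, so the makeup of the galectin mRNA pool was computed as the share of each galectin in the summed reads per kilobase of exon. With PBS, Lgals3 held 57.5% ± 1.55 of the pool (SD), Lgals1 39.2% ± 1.59, Lgals9 2.12% ± 0.36, and Lgals8 1.22% ± 0.15. With LPS, Lgals9 held 12.7%, 13.9%, and 20.9% of the pool in the 3 sets, against 1.75%, 2.14%, and 2.48% with PBS. The share of Lgals8 was 3.37%, 3.29%, and 5.70% with LPS and 1.07%, 1.20%, and 1.38% with PBS. That of Lgals3 was 44.8%, 47.4%, and 42.5% with LPS and 56.7%, 59.3%, and 56.5% with PBS. For these 3 genes the groups did not overlap, and the differences of the means were 13.7, 2.90, and −12.6 percentage points, each with p = 0.1 in a two-sided exact permutation test, the smallest that 3 against 3 libraries allow (adjusted p = 0.2 over 20 comparisons). Shares of the same pool are tied, so higher shares of Lgals9 and Lgals8 lower the remaining shares whatever the levels of those genes. The lower share of Lgals3 is therefore not a separate result. The share of Lgals1 overlapped between LPS and PBS, at 35.2% ± 4.12 against 39.2% ± 1.59. Per kilobase, Lgals9 had 0.0309 to 0.0438 times the reads of Lgals3 with PBS and 0.283 to 0.492 times with LPS, a difference of 3.24 on the log2 scale (exact permutation p = 0.1, adjusted p = 0.165 over 28 comparisons of ratios).

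**Figure D3:**
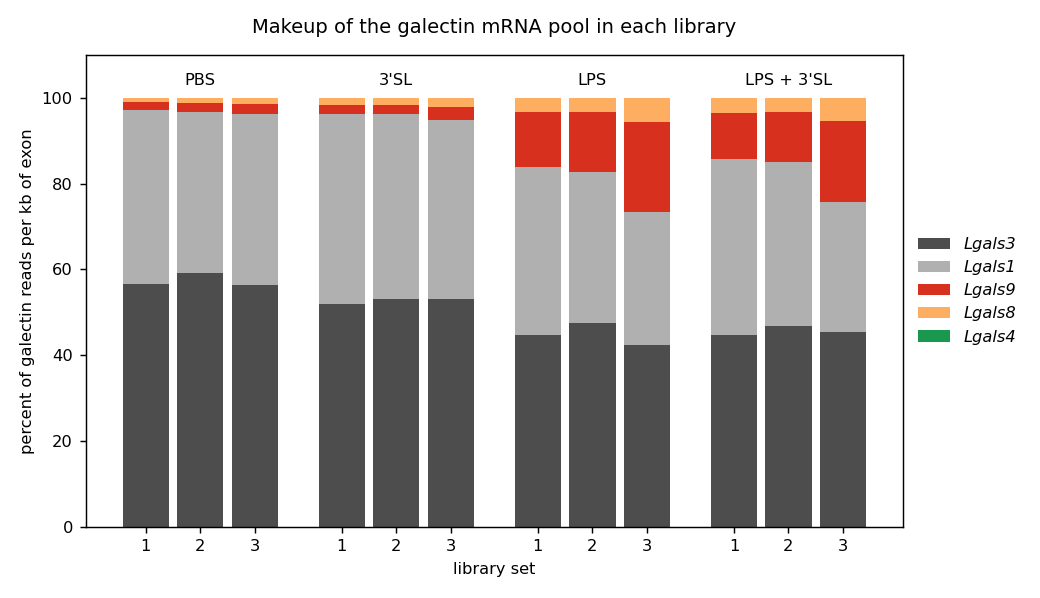
Share of each galectin in the reads per kilobase of the 5 galectins, in percent, with 1 bar per library in the order of library sets 1 to 3 within each group. Lgals9 takes 12.7% to 20.9% of the pool with LPS and 1.75% to 2.48% with PBS, and Lgals4, at no more than 0.0222%, is too small to see.

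None of the 6 genes passed the test with 3′SL alone. With edgeR, 0 of 6 were called for 3′SL against PBS, as were 0.0% of all genes tested, and 1 of the 6, Lgals3, had an unadjusted p under 0.05. DESeq2 also called 0 of 6, with 1 at an unadjusted p under 0.05, and 0.615% of all genes. These shares are for calls, and the share of all genes at an unadjusted p under 0.05 is not given here. Lgals3 had a log2 fold change of −0.37 ± 0.14 SE (1.29-fold lower, unadjusted p = 0.0277, adjusted p = 0.453, edgeR), and it was lower in 3 of 3 sets, by −0.30, −0.41, and −0.39 on the log2 scale. Of all genes tested, 13.0% had a lower log2 fold change than Lgals3. Its 3′SL libraries did not overlap the PBS libraries, which was so in this direction for 8.53% of all genes tested. With the library sets as a block, the adjusted p was 0.0204 at the same log2 fold change of −0.37, still under the 1.5-fold minimum, as it was with block and total counts (−0.46, adjusted p = 0.0165). An adjusted p under 0.05 in the block fit with a lower level, whatever the fold, was reached by 1.73% of all genes.

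Lgals8 was the other gene whose libraries did not overlap between 3′SL and PBS, with a log2 fold change of 0.27 ± 0.19 SE (95% interval −0.15 to 0.69, adjusted p = 0.681, edgeR). Of all genes tested, 9.02% did not overlap in this direction. Lgals8 was higher in 3 of 3 sets, and the share of all genes that were so was not computed. Per kilobase, Lgals8 had 0.0189 to 0.0244 times the reads of Lgals3 with PBS and 0.0301 to 0.0381 times with 3′SL, a log2 difference of 0.64 (exact permutation p = 0.1, adjusted p = 0.165 over 28 comparisons). The lower level of Lgals3 (−0.37) enters this ratio, so it is not separate support for Lgals8. The ratios of Lgals9 to Lgals8 (log2 difference −0.28) and of Lgals3 to Lgals1 (−0.26) did not overlap either, with the same p-values. Lgals9 had a log2 fold change of −0.01 (95% interval −0.46 to 0.45), Lgals3bp of 0.02 (−0.75 to 0.79), and Lgals1 of −0.10 (−0.50 to 0.30). Lgals4 was at 0.40, with an interval from −1.01 to 1.81. The intervals of Lgals3, Lgals8, Lgals3bp, and Lgals4 all reached past 1.5-fold. In the galectin pool, Lgals3 held 51.9%, 53.0%, and 53.2% with 3′SL and was below all PBS libraries, and Lgals1 held 44.3%, 43.3%, and 41.5%, above all PBS libraries (differences of the means −4.78 and 3.86 percentage points, exact permutation p = 0.1, adjusted p = 0.2 over 20 comparisons). As parts of the same pool these differences are tied and are not separate results. In CPM, Lgals1 was lower within each set, by −0.04, −0.04, and −0.24 on the log2 scale.

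None passed the test when 3′SL was given beside LPS. For LPS + 3′SL against LPS, edgeR called 0 of 6, 0.0% of all genes tested were called, and 0 of 6 had an unadjusted p under 0.05 with edgeR or DESeq2, which called 0 of 6 and 0.79% of all genes. Again, the share of all genes at that unadjusted p is not given. Lgals9 had a log2 fold change of −0.28 ± 0.21 SE (95% interval −0.74 to 0.17, adjusted p = 0.974, edgeR) and was lower in 3 of 3 sets, by −0.34, −0.32, and −0.22. Lgals3bp, at −0.24 ± 0.35 SE (−1.01 to 0.53), was also lower in 3 of 3 sets, by −0.37, −0.26, and −0.16. Of all genes tested, 14.9% had a lower log2 fold change than Lgals9 and 18.1% a lower one than Lgals3bp. The share of all genes that were lower in 3 of 3 sets was not computed. With the library sets as a block, the unadjusted p was 0.0198 for Lgals9 and 0.0230 for Lgals3bp, and the adjusted p was 0.211 and 0.226. Lgals8 was at −0.09 (−0.51 to 0.32), Lgals3 at −0.07 (−0.38 to 0.25), and Lgals1 at −0.03 (−0.43 to 0.38). The sign of the last 2 turned with total counts, under which Lgals3 was at 0.02 and Lgals1 at 0.07. The ratio of Lgals9 to Lgals8, which no scaling touches, lay between 3.66 and 4.23 with LPS alone and between 3.14 and 3.59 with both, a log2 difference of −0.20 (exact permutation p = 0.1, adjusted p = 0.165 over 28 comparisons). It was the only ratio computed whose groups did not overlap here. The ratios of Lgals9 to Lgals3, Lgals1, and Lgals3bp overlapped, with log2 differences of −0.23, −0.26, and −0.03 (exact permutation p = 0.5, 0.5, and 0.8).

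Whether the effect of 3′SL differed with LPS was tested as the interaction of both treatments. With edgeR, 0 of 6 genes were called, 0.0% of all genes tested were called, and 0 of 6 had an unadjusted p under 0.05 with edgeR or DESeq2, which called 0 of 6 and 0.308% of all genes. Here too the share of all genes at that unadjusted p is not given. The interaction was 0.30 ± 0.20 SE for Lgals3 (adjusted p = 0.865, edgeR), whose log2 fold change with 3′SL was −0.37 without LPS and −0.07 with it. For Lgals8 it was −0.36 ± 0.27 SE (adjusted p = 0.882) and for Lgals9 −0.27 ± 0.29 SE (adjusted p = 0.932). With the block the adjusted p was 0.168 for Lgals3, 0.281 for Lgals8, and 0.361 for Lgals9.

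The partners of galectins responded to LPS in both directions. Of 24 glycoproteins known to bind galectins, all were tested, 9 were called higher, 5 lower, and 10 were not called when LPS was compared with PBS, beside 18.3% of all genes called higher and 20.2% lower. Their median change was 0.26 on the log2 scale, against −0.06 for all genes. Those named here are the 3 of largest change per direction. Itga5, the α5 chain of the fibronectin receptor, rose from 166 ± 51.7 to 954 ± 164 CPM (log2 fold change 2.52, adjusted p = 0.000128, edgeR). Itga6, the α6 chain of laminin receptors, fell by 2.04 on the log2 scale (adjusted p = 0.000126). Havcr2, which encodes the galectin-9 receptor TIM-3, fell from 67.0 ± 4.72 to 19.4 ± 3.72 CPM (log2 fold change −1.79, adjusted p = 2.9e-05), while its ligand gene Lgals9 rose. Nrp1, a coreceptor for semaphorins and VEGF, fell by 1.44 (adjusted p = 0.000258). The checkpoint receptor Lag3 and the costimulatory receptor Tnfrsf9 were called higher (log2 fold change 2.39 and 2.52) at low levels, 2.58 ± 2.24 and 2.19 ± 1.52 CPM with LPS. Both calls were lost with total counts, without PBS library 1 or 2 or LPS library 3, and without library set 1 or 2, and that of Tnfrsf9 also without PBS library 3. Without PBS library 1 or LPS library 3 alone, or without library set 1 or 2, the list had 5 genes called higher, and with total counts 2 higher and 7 lower, where 10.7% of all genes were called higher and 46.5% lower.

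The enzymes and transporters that build galectin-binding glycans split almost evenly. Of 25 tested, 7 were called higher and 8 lower with LPS (all genes 18.3% and 20.2%), and their median change was −0.03 on the log2 scale. With total counts the split was 4 higher and 12 lower (all genes 10.7% and 46.5%). Gcnt2, which branches poly-N-acetyllactosamine chains, rose from 1.81 ± 0.84 to 27.5 ± 12.8 CPM (log2 fold change 3.91, adjusted p = 0.000613, edgeR). Mgat4a, which adds a branch to N-glycans, and B4galt5, a galactosyltransferase that makes lactosylceramide, rose by 2.15 and 2.06 on the log2 scale. Gcnt1, which makes the core on which O-glycans branch, fell from 150.5 ± 47.0 to 13.5 ± 1.65 CPM (log2 fold change −3.48, adjusted p = 1.8e-06). St6gal1, which caps galactose with 6-linked sialic acid, fell by 2.87 (adjusted p = 4.8e-06), and B3gnt8, which extends lactosamine chains, fell by 2.62 (adjusted p = 1.6e-06). These 6 calls held in all 22 alternatives.

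Among 10 partners of galectins at damaged endosomes, 9 were tested, 5 were called higher, 1 lower, and 3 not called with LPS (all genes 18.3% higher and 20.2% lower), and their median change was 0.85 on the log2 scale. With total counts the split was 4 higher and 2 lower (all genes 10.7% and 46.5%), and the median change was 0.22, against −0.71 for all genes. Calcoco2, the gene for NDP52, had at most 1 read in any library. Tax1bp1 and Optn, both autophagy receptors, rose by 1.80 (adjusted p = 0.000644, edgeR) and 1.63 (adjusted p = 5.5e-05), and Chmp4b, a subunit of the ESCRT filament, rose by 1.53 (adjusted p = 0.000173). Trim16, a ubiquitin ligase that works with galectin-3, was called lower (log2 fold change −1.12, adjusted p = 0.0246). The call was lost when any of PBS libraries 1 and 2 or LPS libraries 2 and 3 was left out singly. It was also lost without library set 1 or 2, and in all these fits no gene of the list was called lower. For scale, all 12 type I interferon response genes taken as comparators were called higher with LPS, with a median change of 6.30 on the log2 scale, from 2.99 for Oas1a to 8.89 for the chemokine Cxcl10. The antiviral genes Rsad2 (7.44) and Ifit1 (6.89) followed Cxcl10.

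**Figure D4:**
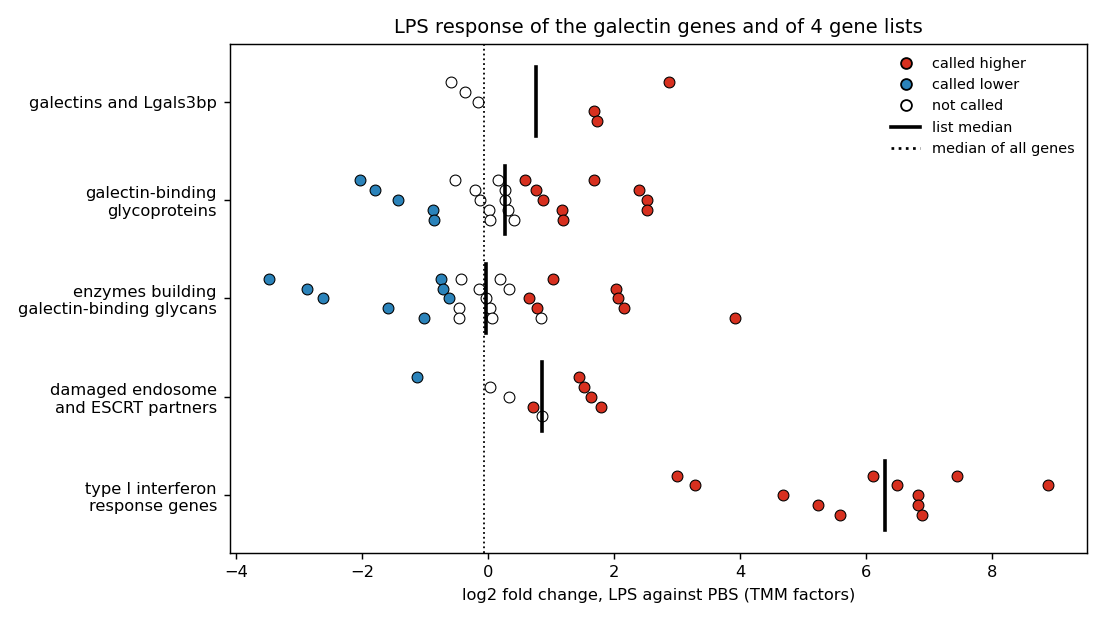
Log2 fold change for LPS against PBS (TMM factors) of the 6 genes and of 4 lists, with each gene as a point filled red where called higher, blue where called lower, and white where not called; bars are list medians and the dotted line the median of all genes. Lgals9, at 2.88, lies just below the lowest of the 12 interferon response genes, at 2.99.

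With 3′SL, edgeR called 0 genes of these lists, with or without LPS. A block for the library sets called 2.84% of all genes for 3′SL against PBS and 1.45% for LPS + 3′SL against LPS. In these comparisons 4 list genes passed, and they are named for that reason, after their values were seen. Sqstm1, the autophagy receptor p62, was at 545, 516, and 852 CPM with PBS and at 912, 833, and 2791.5 with 3′SL (block log2 fold change 1.12 ± 0.27 SE, adjusted p = 0.0385). Trim16 was at 7.61, 6.31, and 4.22 CPM with PBS and at 10.8, 11.0, and 19.8 with 3′SL (1.24 ± 0.31, adjusted p = 0.0416). Both were higher in every set, and in both the set 3 library was the highest with 3′SL. Mgat4a went from 35.6, 32.4, and 51.6 to 52.8, 53.3, and 93.4 CPM (0.72 ± 0.10, adjusted p = 0.00597). Beside LPS, Gcnt1 was at 15.3, 12.3, and 12.8 CPM without 3′SL and at 29.5, 19.9, and 26.9 with it (0.90 ± 0.18, adjusted p = 0.0261), and DESeq2 without the block called it as well (adjusted p = 0.0410). These levels remained far below those of Gcnt1 without LPS, at 117 to 204 CPM over the PBS libraries. In the interaction, the block called 1.55% of all genes and 3 list genes, Cd44 (−0.62), Mgat4a (−0.93), and Mgat5 (0.71), with adjusted p = 0.0353, 0.0145, and 0.0254.

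Each gene was set beside the tested genes whose log2 CPM over the 12 libraries was most like its own by Pearson r. The libraries share groups, sets, and scaling, so r describes likeness and carries no test. Nearest to Lgals9 were Nmi (r = 0.999), Epsti1 (0.999), and Oas1c (0.999). Nearest to Lgals3bp were B2m (0.995), H2-K1 (0.995), and H2-T23 (0.993), the light chain and heavy chains of MHC class I molecules. Lgals8 was nearest to Fxr1 (0.998), Trmt1l (0.996), and Nsd3 (0.996), and among the 6 genes it lay close to Lgals9 (0.984) and Lgals3bp (0.954). Lgals3 was nearest to Thoc3 (0.946), Ahsa1 (0.937), and Sms (0.936), and Lgals1 to Park7 (0.973), Dnph1 (0.972), and Gusb (0.965). For Lgals4 the nearest were 4930404I05Rik (0.942), Apbb1ip (0.889), and Gm20632 (0.886), from few reads. With library-set means subtracted, the gene nearest to Lgals3bp was Lgals9 itself (0.997), and Nmi (0.999) and Fxr1 (0.998) were still nearest to Lgals9 and Lgals8. None of the genes named above for Lgals1, Lgals3bp, and Lgals4 stayed among their 3 nearest, and of those for Lgals3 only Sms did. Which genes ranked nearest to Lgals1, Lgals3, Lgals3bp, and Lgals4 therefore changed with the subtraction. For the genes that left these ranks, r after the subtraction is not given, so a loss of likeness was not shown.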

How the data were processed

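For each of the 12 libraries, the authors deposited whole-number read counts per gene, not normalized. The submitters' processing notes name FastQC, Trimmomatic, STAR, HTSeq, and DESeq2; their versions, the genome build, the annotation, and the strand setting are not given in the sources used here. Groups were taken from the labels. The 6 genes and the gene lists were chosen with earlier results of these data known.

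Identifiers were matched, without versions, to GENCODE M21 on GRCm38 (42548 of 43626). Between 33.2% and 37.1% of the reads in each file were not assigned to a gene and were left out. The 20411741 to 26851890 counted reads per library set the precision. The fit used edgeR 4.0.16 in R 4.3.3 (filterByExpr, TMM factors, 1 mean per group over all 12 libraries, quasi-likelihood test), and p-values were adjusted over all 14308 genes (Benjamini-Hochberg). Ratios and shares were compared with exact permutation tests computed in Python 3.11.15 with numpy 2.4.6. Alternatives were DESeq2 1.42.0 (Wald test, no independent filtering), total counts or DESeq2's size factors for scaling, a minimum of 1 count, only the groups compared, library sets as a block, and leaving out single libraries; leaving out whole library sets was added after the data had been seen. Intervals are at 95%. Named list genes are the 3 called with the largest change per direction for LPS against PBS and any called for 3′SL, and for each of the 6 genes the 3 most alike are named. The fit was tested on simulated data. Library sets were found by clustering residuals, and each takes 4 neighbouring libraries of the labels' numbering. Proteins were not analysed here.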

Additional observations from a re-analysis of the deposited data

How the results depend on the processing

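The labels carry no replicate numbers that pair libraries. The library sets, which were found from the data, were fitted as a block, and this changed no call of the 6 genes with TMM factors. The calls of Lgals9, Lgals8, and Lgals3bp with LPS held in all alternatives for LPS against PBS. Their log2 fold changes without 1 library ranged from 2.70 to 2.99, 1.51 to 1.84, and 1.39 to 1.97. With total counts, 2 of 6 genes were called lower with LPS, and 3 with block and total counts, which for LPS + 3′SL against 3′SL called 1 lower, Lgals4.

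All reversals concerned changes that were not called, and their cause was not tested. For 3′SL against PBS, Lgals3bp turned to −0.079 with total counts, −0.067 with block and total counts, and −0.084 without library set 1. Lgals9 turned to 0.00068 with DESeq2, 0.00067 with its size factors, and 0.12 without library set 2. For LPS + 3′SL against LPS, Lgals1 turned to 0.070 with total counts, 0.059 with block and total counts, and 0.0071 without library set 3, Lgals3 to 0.022 and 0.026 with total counts without and with the block, and Lgals4 to −0.41 without library set 2. Without library set 3, Lgals1 turned to 0.0056 for LPS + 3′SL against 3′SL, and the interaction of Lgals4 to 0.25.

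Without 1 library, these changes crossed 0. For 3′SL against PBS, Lgals3bp ranged from −0.32 to 0.32, Lgals4 from −0.033 to 0.77, and Lgals9 from −0.16 to 0.088. For LPS + 3′SL against LPS, Lgals1 ranged from −0.16 to 0.14, Lgals3 from −0.16 to 0.026, Lgals3bp from −0.60 to 0.049, Lgals4 from −0.45 to 0.53, and Lgals8 from −0.30 to 0.13. Lgals1 ranged from −0.18 to 0.073 for LPS + 3′SL against 3′SL. The interaction ranged from −0.062 to 0.23 for Lgals1, −0.62 to 0.075 for Lgals3bp, and −0.85 to 0.13 for Lgals4. Lgals4 has no value in the fit of only the LPS and LPS + 3′SL groups, whose filter removed it, and its few reads limit every comparison of it.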
